A study of Homo sapiens with 12 samples.

Results

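Homologous recombination and the Fanconi anaemia pathway were followed through 40 of their genes, taken by symbol from a fixed list out of the 19923 protein-coding genes counted in each library. All 40 were found and all 40 had enough reads to test in both cell lines, the least covered having 201 reads over the 3 libraries of a group. The cells were SK-N-BE2 and NGP, human neuroblastoma lines with wild-type genotype and amplified MYCN. They were grown in RPMI medium with serum and treated for 6 days with STM2457, a small-molecule inhibitor of the RNA methyltransferase METTL3, or with its solvent DMSO. The dose was 12 µM for SK-N-BE2 but 1 µM for NGP. Each of the 4 groups (SK-N-BE2 DMSO, SK-N-BE2 STM2457, NGP DMSO and NGP STM2457) had 3 replicates, and polyadenylated RNA was sequenced. The comparison with DMSO asks how these repair genes changed in each line, and a further test asks whether they changed by the same amount as the genes of DNA replication.

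Homologous recombination repairs a broken chromosome by copying the sister chromatid: the MRE11-RAD50-NBN complex finds the end, resection exposes single-stranded DNA that RPA coats, and BRCA2 with its partners prepares that strand to search for the matching sequence. XRCC2, XRCC3 and their relatives, with the RAD54 motors, help that search, and nucleases and the BLM-TOP3A-RMI complex resolve the joined molecules. The Fanconi pathway detects DNA crosslinks at stalled replication forks with a core ubiquitin ligase, marks FANCI and FANCD2 with ubiquitin, and passes the lesion to recombination. Many of these genes are transcribed mainly in S and G2 phase, when a sister chromatid is present, and E2F factors, which drive genes of S phase, are known regulators of several of them.

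Promoter sequence was available in RefSeq (GRCh38.p14) for 34 of the 40 genes, from 250 bases before to 50 bases after the annotated start. It was searched on both strands for 4 forms of the E2F site, TTTCCCGC, TTTCGCGC, TTTGCCGC and TTTGGCGC. At least 1 of them occurred in 5 of the 34 promoters (14.7%), against 3.33% of 27305 promoters in the table and 20 of 49 (40.8%) promoters of replication genes. The 5 were TOPBP1, XRCC2, FANCA, FANCC and FANCD2. Windows of 3 of these are shown because the genes span the responses described below: XRCC2 had the largest rise of all 40 genes in both lines, FANCD2 rose in both lines, and FANCC fell in SK-N-BE2. Each runs from 200 bases before to 30 bases after the start, 5′ to 3′ on the gene's own strand, with the E2F match in capitals. XRCC2 is at chr7:152676112-152676341 on the minus strand, FANCD2 at chr3:10026237-10026466 on the plus strand and FANCC at chr9:95317680-95317909 on the minus strand.
XRCC2: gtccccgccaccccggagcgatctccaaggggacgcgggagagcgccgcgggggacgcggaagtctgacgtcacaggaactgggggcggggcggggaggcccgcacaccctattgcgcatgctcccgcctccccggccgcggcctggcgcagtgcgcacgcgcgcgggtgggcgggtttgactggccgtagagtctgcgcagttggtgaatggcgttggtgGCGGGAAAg
FANCD2: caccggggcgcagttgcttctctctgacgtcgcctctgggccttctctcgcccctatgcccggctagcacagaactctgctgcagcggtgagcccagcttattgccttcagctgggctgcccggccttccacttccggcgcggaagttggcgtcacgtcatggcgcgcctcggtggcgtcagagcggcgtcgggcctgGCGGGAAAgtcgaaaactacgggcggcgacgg
FANCC: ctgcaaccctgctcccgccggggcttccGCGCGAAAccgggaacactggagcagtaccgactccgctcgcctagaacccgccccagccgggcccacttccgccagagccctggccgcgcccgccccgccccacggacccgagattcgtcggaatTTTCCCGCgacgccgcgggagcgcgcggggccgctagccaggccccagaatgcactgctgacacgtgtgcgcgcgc
In XRCC2 the match lies from base 22 to base 29 after the start, and in FANCD2 it spans the start itself, from base -2 to base 6 (counted from 1 at the start, with no base 0). FANCC holds 2 matches, at -172 to -165 and at -46 to -39. TOPBP1 has its match across the start (-7 to 1) and FANCA far upstream (-172 to -165). A match is a run of letters and was not shown to be a bound site.

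Depth was even across groups, from 47242379 to 58159937 assigned reads per library. Neuroblastoma identity was checked with 11 markers, of which 10 reached 1 CPM (assigned reads scaled to a common library size) in each group. Of 4 fibroblast genes, 3 were called higher with STM2457 in each line and none was at 0. Their summed level was between 86.2 and 98.7 CPM in the SK-N-BE2 controls and between 158 and 170 CPM after treatment, and in NGP it was between 52.3 and 63.5 and then between 259 and 282 CPM. The sum of 4 endothelial genes was between 16.1 and 21.6 CPM and then between 9.98 and 12.2 CPM in SK-N-BE2, where 3 of the 4 were called lower. In NGP it was between 0.0782 and 0.272 CPM and then between 2.31 and 3.32 CPM, with PECAM1 at 0 there. The 1 endothelial gene tested in NGP was called higher. The part of the fibroblast and endothelial genes in the changes below was not tested. Summed markers of T or B cells, macrophages and epithelium (4 genes each, with MS4A1, AIF1 and KRT5 at 0) stayed under 8 CPM in each library. NGP DMSO replicate 1 stood apart from the other NGP DMSO libraries: against the DMSO mean, the median of the 1296 genes with the longest exons was -0.27 on the log2 scale and that of the 1296 shortest was 0.33. Results in NGP that it moved are therefore also given without that library. In bulk RNA, fewer cells in a phase or state and less RNA per cell cannot be told apart, and line, dose and sequencing run cannot be told apart either, because each line had its own dose and run.

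In SK-N-BE2, most of the 40 recombination and Fanconi genes were higher with STM2457. At an edgeR adjusted p under 0.05, 30 of the 40 were called, against 54.7% of the 14013 genes tested in that line. Of these, 24 were higher (26.9% of all genes were called higher) and 6 were lower (27.8% of all genes). The median log2 fold change of the 40 was 0.56, beside -0.02 for all genes tested. The STM2457 libraries lay above all DMSO libraries for 27 genes and below them for 5, against 33.2% and 29.0% of all genes. The rise was led by XRCC2, RMI2, RAD54L, BRCA2, FANCI and TOPBP1, each more than doubled, and the falls by RAD51B, MUS81, FAN1 and RAD50.

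In NGP, at its lower dose, 18 of the 40 were called, against 41.7% of 13610 genes tested, with 15 higher (19.4% of all genes) and 3 lower (22.2% of all genes). Their median log2 fold change was 0.28, beside -0.03 for all genes. Libraries did not overlap for 20 genes that were higher and 4 that were lower, against 28.4% and 26.2% of all genes. XRCC2, BRCA2, FANCD2, FANCL, FANCA and POLQ rose most, and PALB2, RAD51D and RPA2 were the 3 that fell. Without NGP DMSO replicate 1, 25 genes were called (57.3% of all genes in that fit), 19 higher (27.6%) and 6 lower (29.7%), so calls became more frequent among all genes too. Only 1 gene was called lower when STM2457 replicate 1 or 2 was left out. The genes that passed only once NGP DMSO replicate 1 was left out were ATRIP, FANCG, MRE11 and RPA3 as higher. BRCA1, FAN1 and RBBP8 passed as lower in that same fit.

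**Figure D1:**
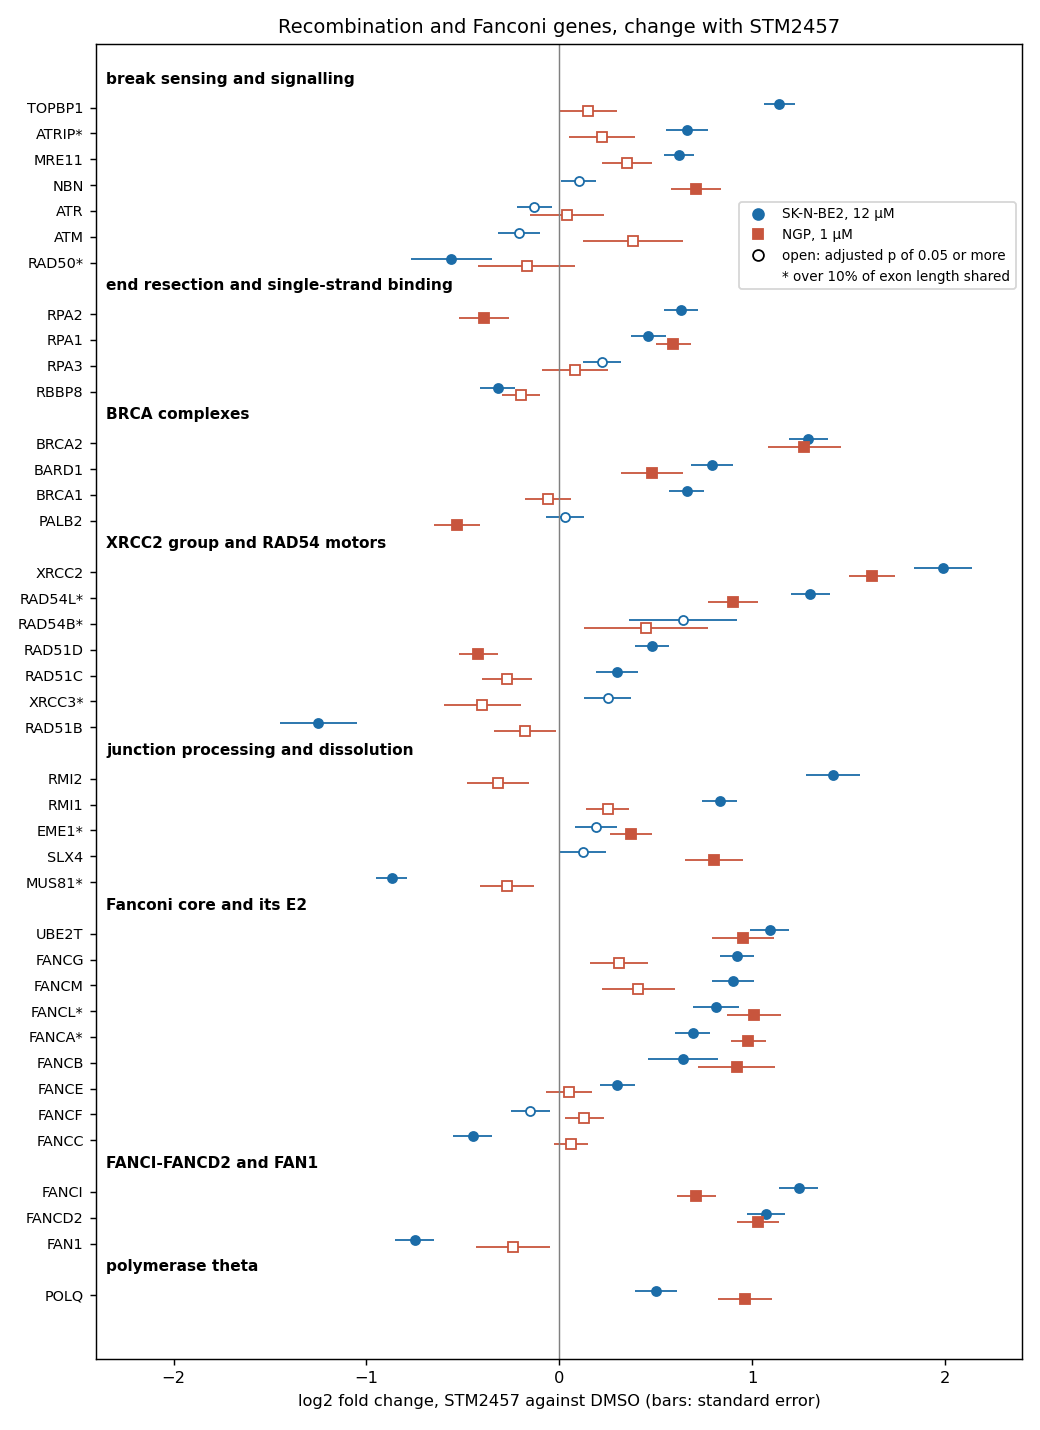
Log2 fold change of each of the 40 genes with STM2457 against DMSO (x axis) in SK-N-BE2 (circles) and NGP (squares), grouped by role. Bars are the standard error of the edgeR fit over 3 replicates per group, filled symbols passed an adjusted p of 0.05 and open ones did not, and an asterisk marks genes that share over 10% of their exon length with another counted gene. XRCC2 is farthest right in both lines and RAD51B is farthest left in SK-N-BE2.

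Among the genes that sense breaks and signal them, TOPBP1, the activator of the ATR kinase, changed most in SK-N-BE2 and NBN in NGP. The TOPBP1 level in SK-N-BE2 was 51.9, 47.6 and 49.1 CPM with DMSO and 113, 119 and 104 CPM with STM2457. All treated libraries were above all controls, a 2.20-fold rise (log2 1.14, SE 0.08, edgeR adjusted p 1.58e-07). In NGP the values were 116, 170 and 164 CPM with DMSO and 168, 165 and 177 CPM with STM2457. These groups overlapped, and the log2 change of 0.15 (SE 0.15) did not pass (edgeR adjusted p 0.437). Without NGP DMSO replicate 1 it was -0.01. MRE11, the nuclease of the end-binding complex, had a log2 rise of 0.62 (SE 0.08) in SK-N-BE2, and ATRIP, the partner of ATR, one of 0.66 (SE 0.11). In NGP neither passed with all libraries (0.35 and 0.22), and without DMSO replicate 1 both did (0.22 and 0.39, edgeR adjusted p 0.0175 and 0.0322). ATRIP shares 26.7% of its exon length with TREX1, so reads of these genes may have been lost or mixed.

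The 3 subunits of the MRE11 complex did not move together. RAD50, its zinc-hook ATPase, fell in SK-N-BE2, with 6.64, 3.99 and 7.29 CPM in DMSO and 4.91, 3.77 and 3.77 CPM in STM2457. The groups overlapped, the log2 change was -0.56 (SE 0.21, edgeR adjusted p 0.0357), and leaving out single libraries took the adjusted p as high as 0.171. RAD50 is uncertain, because 76.9% of its exon length is shared with a second gene model, AC116366.3, and reads in shared exons were not counted. NBN, the signalling subunit, showed the reverse order of lines: the SK-N-BE2 libraries held 42.1, 43.7 and 40.7 CPM with DMSO and 42.1, 50.4 and 46.7 CPM with STM2457, where it was not called (edgeR adjusted p 0.366). In NGP it went from 56.9, 72.6 and 79.4 CPM to 113, 112 and 122 CPM. No NGP libraries overlapped, and the rise was 1.63-fold (log2 0.71, SE 0.13, edgeR adjusted p 0.00339). ATM and ATR, the kinases at the head of the response, were called in neither line, ATM having log2 changes of -0.21 (SK-N-BE2) and 0.38 (NGP), and ATR of -0.13 and 0.04. The NGP values without DMSO replicate 1 were 0.11 for ATM and -0.16 for ATR.

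Replication protein A is a trimer, and its subunits are used together in replication, recombination and excision repair. RPA1, the large DNA-binding subunit, rose in both lines. Its log2 change was 0.46 for SK-N-BE2 (SE 0.09, with an edgeR adjusted p of 0.000548) and 0.59 for NGP (SE 0.09, with an edgeR adjusted p of 0.00103). RPA2, the subunit phosphorylated after damage, went in opposite directions. In SK-N-BE2 it stood at 40.3, 44.9 and 37.6 CPM with DMSO and at 64.5, 65.0 and 65.8 CPM with STM2457, a rise with no overlap (1.55-fold, edgeR adjusted p 5.19e-05). In NGP it stood at 147, 106 and 113 CPM with DMSO and at 92.3, 94.4 and 97.8 CPM with STM2457, a fall with no overlap (0.764-fold, edgeR adjusted p 0.0412). The highest NGP control was replicate 1, and without it the log2 change was -0.24 (edgeR adjusted p 0.0097) in place of -0.39. This fall no longer passed when any single STM2457 library or DMSO replicate 3 was left out, or with a replicate block, with an edgeR adjusted p of up to 0.135. RPA3, the small subunit, did not pass in either line (log2 0.22 and 0.08), but without NGP DMSO replicate 1 its NGP change was 0.29 (edgeR adjusted p 0.0157). RBBP8, which starts resection with MRE11, fell by 0.32 in SK-N-BE2 (edgeR adjusted p 0.00872, SE 0.09) and had a log2 change of -0.20 in NGP that did not pass (edgeR adjusted p 0.16). That change was -0.29 and passed without NGP DMSO replicate 1 (edgeR adjusted p 0.00265).

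BRCA2, the central mediator of strand exchange, rose 2.45-fold in SK-N-BE2 and 2.41-fold in NGP. Its SK-N-BE2 values were 29.4, 23.9 and 24.3 CPM with DMSO and 58.9, 69.5 and 66.4 CPM with STM2457 (log2 1.29, SE 0.10, edgeR adjusted p 4.06e-07). Its NGP values were 28.6, 50.2 and 44.4 CPM with DMSO and 105, 93.5 and 104 CPM with STM2457 (log2 1.27, SE 0.19, edgeR adjusted p 0.00123). The groups did not overlap in either line. The lowest NGP control was replicate 1, and without it the NGP log2 change was 1.06.

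PALB2, which bridges BRCA1 and BRCA2, did not follow its partner. With DMSO it was at 31.2, 37.4 and 38.6 CPM in NGP and with STM2457 at 25.9, 24.1 and 25.5 CPM, all treated libraries below all controls. This was the largest fall among the 40 genes in NGP (log2 -0.53, SE 0.12, edgeR adjusted p 0.00772). Its SK-N-BE2 log2 change was 0.03 (SE 0.10, edgeR adjusted p 0.805), with 32.3, 27.5 and 27.4 CPM in DMSO and 31.4, 30.7 and 29.3 CPM in STM2457. BRCA1 rose in SK-N-BE2 by 0.66 (SE 0.09, edgeR adjusted p 3.77e-05) and had a log2 change of -0.06 in NGP (SE 0.12, edgeR adjusted p 0.703), which without NGP DMSO replicate 1 was -0.18 (edgeR adjusted p 0.0427). BARD1, with which BRCA1 forms a ubiquitin ligase, rose in both lines, by 0.79 and 0.48. The NGP call of BARD1 was lost without DMSO replicate 3 or any single STM2457 library, with an edgeR adjusted p of up to 0.127, and without DMSO replicate 1 its change was 0.32.

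RAD51B, RAD51C, RAD51D and XRCC2 work in one complex, and RAD51C and XRCC3 in another, that assist strand exchange. XRCC2 (chromosome 7, 152644776 to 152676141, GRCh38) rose more than any other of the 40 genes in both lines. In SK-N-BE2 it was at 7.92, 5.07 and 8.03 CPM with DMSO and at 26.4, 30.2 and 29.0 CPM with STM2457. In NGP it was at 21.9, 27.2 and 26.4 CPM and then at 78.6, 78.1 and 79.5 CPM. The groups were far apart in both lines, a 3.96-fold rise in SK-N-BE2 (log2 1.99, SE 0.15, edgeR adjusted p 2.59e-07) and a 3.08-fold rise in NGP (log2 1.62, SE 0.12, edgeR adjusted p 3.13e-05).

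Its partners changed less or fell. RAD51B (chromosome 14, 67819779 to 68730218) stood at 3.76, 5.17 and 4.15 CPM in SK-N-BE2 DMSO and fell to 2.14, 1.74 and 1.75 CPM. All treated libraries were below all controls (0.420-fold, log2 -1.25, SE 0.20, edgeR adjusted p 0.000146). In NGP it was at 4.98, 4.56 and 5.27 CPM with DMSO and 4.49, 3.94 and 4.83 CPM with STM2457, which overlapped (log2 -0.18, edgeR adjusted p 0.395). RAD51D (chromosome 17, 35092208 to 35121522) went up in SK-N-BE2 from 14.8, 14 and 14.3 CPM to 20.3, 20.7 and 20.6 CPM (1.39-fold, edgeR adjusted p 0.00077). In NGP it fell from 46.1, 50.3 and 48.2 CPM to 34.5, 36.1 and 39.4 CPM (0.748-fold, edgeR adjusted p 0.0115). Neither line had overlapping groups for RAD51D, but the NGP call was lost without STM2457 replicate 1 or 2, with an adjusted p of up to 0.0706. RAD51C rose slightly in SK-N-BE2 (log2 0.30, SE 0.11, edgeR adjusted p 0.0317), and its NGP change of -0.27 did not pass. The SK-N-BE2 call of RAD51C was lost in 6 of 15 alternatives, including the removal of any single STM2457 library. XRCC3 passed in neither line (log2 0.25 and -0.40) and shares 76.7% of its exon length with KLC1.

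**Figure D2:**
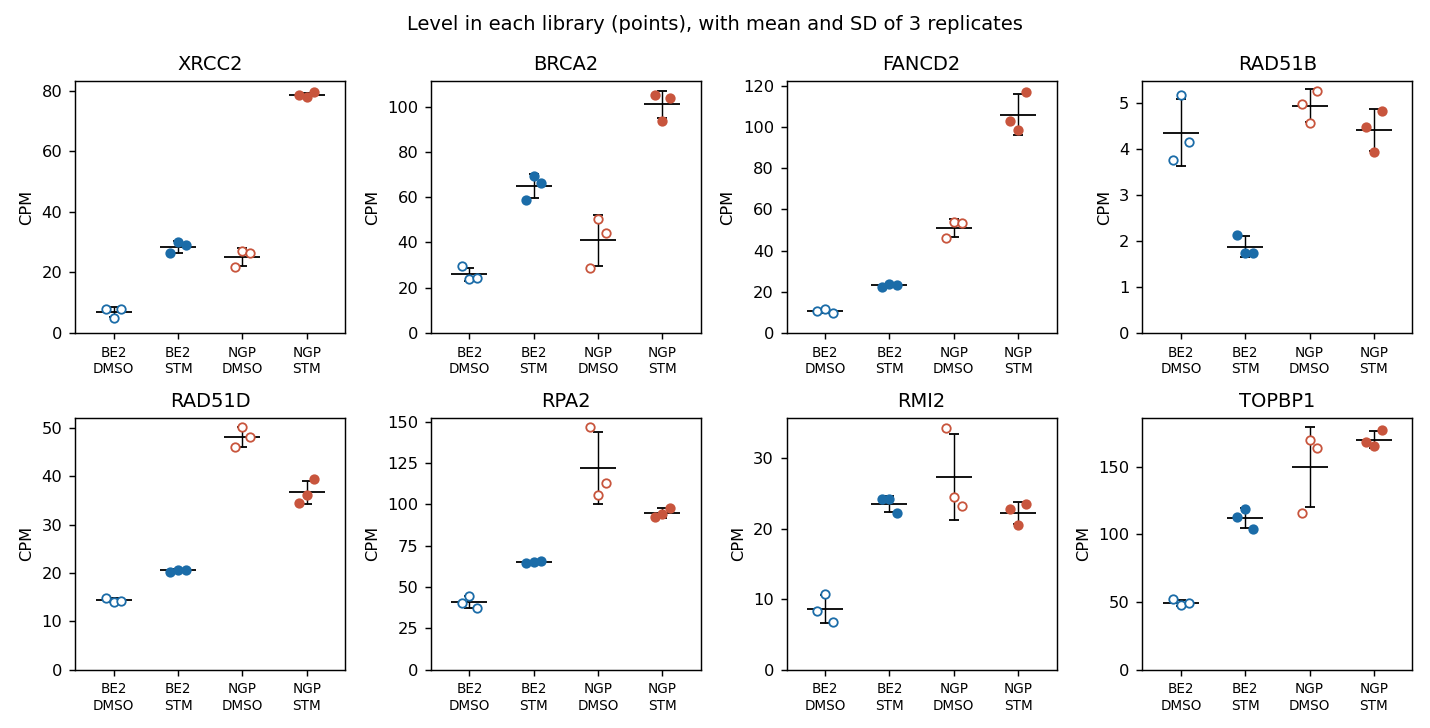
Level of 8 genes in CPM (y axes, from 0) in each of the 12 libraries, with open points for DMSO, filled points for STM2457, bars for the mean and whiskers for the SD of 3 replicates. BE2 stands for SK-N-BE2 and STM for STM2457. XRCC2, BRCA2 and FANCD2 were higher with STM2457 in both lines, while RPA2 and RAD51D rose in SK-N-BE2 but fell in NGP.

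RAD54L, a motor protein of strand exchange, rose 2.46-fold in SK-N-BE2, from 9.11, 8.45 and 8.64 CPM to 22.8, 20.8 and 22.7 CPM (log2 1.30, SE 0.10, edgeR adjusted p 3.3e-07). In NGP it rose 1.87-fold, from 29.4, 23.2 and 24.4 CPM to 48.4, 45.4 and 52.5 CPM (log2 0.90, SE 0.13, edgeR adjusted p 0.000779). No treated library overlapped a control in either line. RAD54L shares 19.9% of its exon length with LRRC41. RAD54B, its paralogue, was the least expressed of the 40 per kilobase in SK-N-BE2 DMSO, NGP DMSO and NGP STM2457 and passed in neither line, with 73.8% of its exon length shared with FSBP.

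Of the 5 genes for taking recombination intermediates apart, 4 were called different between the lines (30.9% of all genes) by the test given further on. Of these calls, that of SLX4 was lost in 3 of 20 alternatives. RMI2, a subunit of the BLM dissolution complex, went from 8.29, 10.7 and 6.83 CPM to 24.2, 24.2 and 22.3 CPM in SK-N-BE2, with no overlap (2.67-fold, log2 1.42, SE 0.14, edgeR adjusted p 3.14e-06). In NGP it was at 34.4, 24.6 and 23.3 CPM with DMSO and 22.8, 20.5 and 23.5 CPM with STM2457. Those groups overlapped, and the log2 change of -0.32 (SE 0.16) did not pass (edgeR adjusted p 0.142). Without NGP DMSO replicate 1, the highest control, it was -0.13. RMI1, its partner subunit, rose by 0.83 in SK-N-BE2 (SE 0.09) and had a log2 change of 0.25 in NGP (edgeR adjusted p 0.111).

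MUS81, a structure-selective nuclease, fell in SK-N-BE2 from 95.3, 95.5 and 103 CPM to 56.9, 50.5 and 57.3 CPM, with no overlap (0.546-fold, log2 -0.87, SE 0.08, edgeR adjusted p 1.93e-06). Its NGP change of -0.27 did not pass (edgeR adjusted p 0.155) and was -0.13 without NGP DMSO replicate 1. EME1, its obligate partner, did not pass in SK-N-BE2 (log2 0.19, edgeR adjusted p 0.158) and rose by 0.37 in NGP (SE 0.11, edgeR adjusted p 0.0268), a call lost in 5 of 15 alternatives. MUS81 shares 14.1% of its exon length with CFL1 and EFEMP2, and EME1 shares 16.4% with LRRC59. SLX4, the scaffold for these nucleases, rose in NGP by 0.80 (SE 0.15, edgeR adjusted p 0.00393), from 13.4, 16.3 and 16.0 CPM to 24.4, 32.5 and 24.0 CPM, and did not pass in SK-N-BE2 (log2 0.12, edgeR adjusted p 0.417).

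Of the 9 genes of the Fanconi core complex and its ubiquitin-conjugating enzyme, 8 were called in SK-N-BE2 (54.7% of all genes), 7 of them higher (26.9% of all genes). In NGP 4 were called, a share close to the 41.7% of all genes, and all 4 were higher (19.4% of all genes). FANCA, the core scaffold, rose in NGP from 39.3, 36.7 and 36.8 CPM to 76.8, 74.1 and 75.9 CPM (1.98-fold, edgeR adjusted p 0.000117) and in SK-N-BE2 from 22.6, 20.6 and 21.8 CPM to 35.7, 35.8 and 36.3 CPM (1.62-fold, edgeR adjusted p 2.14e-05). FANCL, the ligase subunit, rose in NGP from 17.1, 12.8 and 16.0 CPM to 31.5, 29.1 and 33.5 CPM (2.01-fold, edgeR adjusted p 0.000707) and in SK-N-BE2 1.75-fold (edgeR adjusted p 7.69e-05). Groups of FANCA and FANCL did not overlap in NGP or SK-N-BE2, although FANCA shares 23.6% of its exon length with ZNF276 and FANCL 18.7% with VRK2. UBE2T, the E2 enzyme that works with FANCL, rose by 1.09 in SK-N-BE2 and 0.95 in NGP on the log2 scale. FANCB, which holds the ligase in its subcomplex, rose by 0.64 and 0.92.

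With all libraries, the other core genes passed in SK-N-BE2 alone or not at all. FANCG and FANCM, the latter a DNA translocase, rose there by 0.92 and 0.90, with NGP changes of 0.31 and 0.41 that did not pass (edgeR adjusted p 0.128 and 0.112). Without NGP DMSO replicate 1 the FANCG change was 0.51 and passed (edgeR adjusted p 0.000143), while that of FANCM was 0.21. FANCE rose by 0.30 in SK-N-BE2 (edgeR adjusted p 0.012, lost at 0.060 without STM2457 replicate 1). FANCF passed in neither line. FANCC was the exception in direction. It fell in SK-N-BE2 from 23.7, 28.1 and 24.0 CPM to 18.9, 20.1 and 18 CPM, with no overlap (log2 -0.45, SE 0.10, edgeR adjusted p 0.00229), and had a log2 change of 0.06 in NGP (edgeR adjusted p 0.615).

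The pair of proteins that the core complex ubiquitinates rose in both lines. FANCD2 (chromosome 3, 10026414 to 10101930) went from 46.1, 53.7 and 53.2 CPM to 103, 98.4 and 117 CPM in NGP, a 2.05-fold rise (log2 1.03, SE 0.11, edgeR adjusted p 0.000233). Its SK-N-BE2 level went from 10.8, 11.6 and 9.87 CPM to 22.5, 23.8 and 23.5 CPM, a 2.11-fold rise (log2 1.07, SE 0.10, edgeR adjusted p 1.99e-06). Both lines kept their groups apart. FANCI rose in SK-N-BE2 from 38.5, 35.8 and 30.4 CPM to 84.1, 87.3 and 82.3 CPM (2.36-fold, edgeR adjusted p 2.87e-07) and in NGP from 86.7, 101 and 98.2 CPM to 161, 148 and 167 CPM (1.64-fold, edgeR adjusted p 0.000959), again with no overlap.

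FAN1, a nuclease recruited by ubiquitinated FANCD2, moved the other way. Its SK-N-BE2 values of 22.3, 22.4 and 22.2 CPM with DMSO fell to 12.7, 14.4 and 13.8 CPM (0.595-fold, log2 -0.75, SE 0.10, edgeR adjusted p 2.85e-05). In NGP it overlapped, with 15.8, 27.0 and 25.1 CPM in DMSO and 18.7, 20.3 and 19.5 CPM in STM2457 (log2 -0.24, edgeR adjusted p 0.347). Without DMSO replicate 1, the lowest of these, the NGP change was -0.45 and passed (edgeR adjusted p 0.00208). POLQ, the polymerase of microhomology-mediated end joining that backs up recombination, rose in NGP from 25.7, 35.3 and 30.4 CPM to 63.2, 53.2 and 64.6 CPM (1.95-fold, log2 0.96, SE 0.14, edgeR adjusted p 0.00116). Its SK-N-BE2 level rose from 26.8, 20.2 and 24.3 CPM to 34.0, 35.3 and 34.2 CPM (1.42-fold, log2 0.50, SE 0.11, edgeR adjusted p 0.00131). Neither line had overlapping POLQ groups.

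Set side by side, the 2 lines had 12 genes called higher in both: RPA1, BARD1, BRCA2, XRCC2, RAD54L, FANCA, FANCB, FANCL, UBE2T, FANCI, FANCD2 and POLQ. Of 12952 genes tested in both lines, 10.5% were higher in both. By edgeR 0 of the 40 were called lower in both lines (10.8% of all genes), and 0 were at an unadjusted p under 0.05 or by DESeq2. That 0 did not hold without NGP DMSO replicate 1. In that fit FAN1 and RBBP8, both called lower in SK-N-BE2, were also called lower in NGP (29.7% of all genes). With all libraries RPA2 and RAD51D were called in opposite directions (4.96% of all genes), 16 genes were called in SK-N-BE2 alone (29.0% of all genes), 4 in NGP alone (15.4% of all genes), and 6 in neither (29.3% of all genes). Across the 40 genes Pearson's r between the changes was 0.58 and Spearman's rho was 0.53, beside 0.41 and 0.39 across all 12952 genes, given as a description because genes are not independent.

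**Figure D3:**
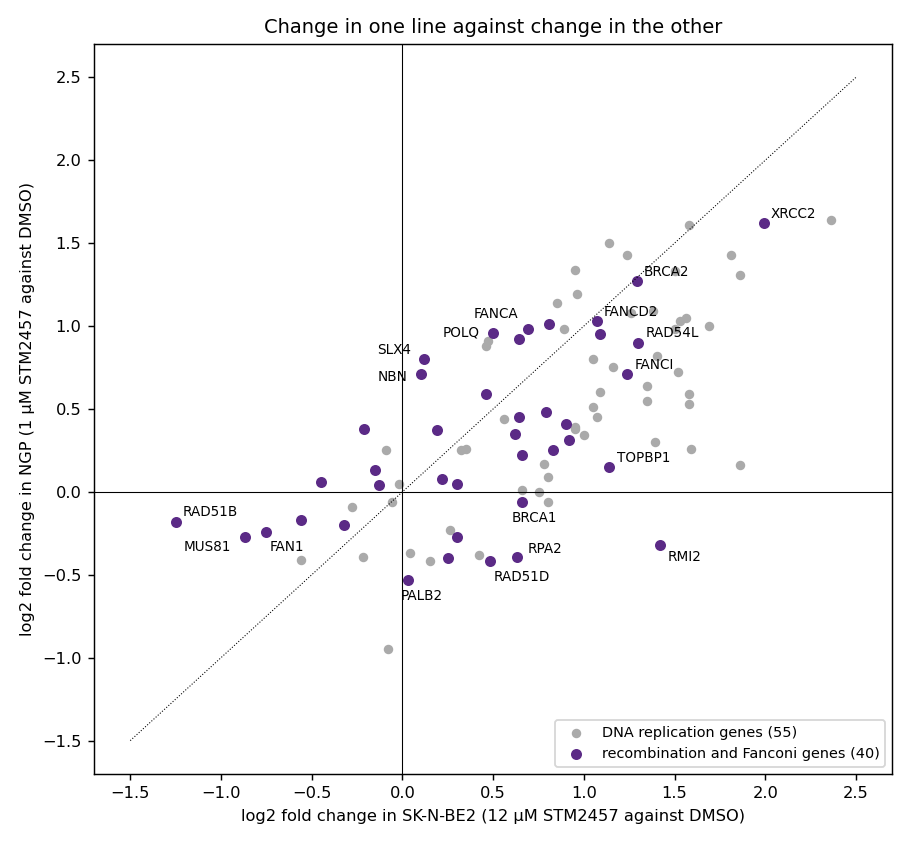
Log2 fold change in NGP (y axis) against that in SK-N-BE2 (x axis) for the 40 recombination and Fanconi genes (purple) and 55 DNA replication genes (grey), 1 point per gene, with the line of equal change dotted. XRCC2 and BRCA2 lie at the upper right, and RMI2 (1.42 in SK-N-BE2, -0.32 in NGP) lies farthest below the line of equal change among the 40 genes.

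Whether the lines responded differently was tested as SK-N-BE2 minus NGP over all 12 libraries. It was called for 15 of the 40 genes, against 30.9% of 14731 genes tested: 10 that leaned to SK-N-BE2, with the more positive change there (17% of all genes), and 5 that leaned to NGP (13.9% of all genes). RMI2 had the largest difference (log2 1.75, SE 0.24, edgeR adjusted p 9.64e-05), followed by RAD51B (-1.05, SE 0.25, edgeR adjusted p 0.00596), RPA2 (1.03, SE 0.16, edgeR adjusted p 0.000275) and TOPBP1 (1.00, SE 0.17, edgeR adjusted p 0.000619). BRCA1 (0.73) and PALB2 (0.57) both leaned to SK-N-BE2, whereas for BRCA2 the difference was 0.03 (SE 0.23, edgeR adjusted p 0.939). FANCI differed (0.54, edgeR adjusted p 0.00972), and for its partner FANCD2 the difference was 0.05 (SE 0.14, edgeR adjusted p 0.822). For XRCC2 it was 0.38 (SE 0.21, edgeR adjusted p 0.184).

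Genes of DNA replication, a list of 55 with no gene in common with the 40, were mostly higher as well. In SK-N-BE2 45 were called higher and 3 lower, with a median log2 fold change of 1.00. In NGP 33 were called higher and 3 lower, with a median of 0.53. CLSPN, an adaptor of the replication checkpoint, rose most in both lines (log2 2.36 in SK-N-BE2 and 1.64 in NGP), followed in SK-N-BE2 by POLE2 and ORC1 (both 1.86) and in NGP by TK1 (1.61) and LIG1 (1.5). The called falls were small by comparison in SK-N-BE2, POLD4 at -0.56 and ORC3 at -0.28, and reached -0.95 for ORC5 in NGP, where PRIM1 was at -0.38. POLD4 and PRIM1 share over 10% of their exon length with other genes. The difference between lines was called in favour of SK-N-BE2 for 27 of the 55, and in favour of NGP for 0 by edgeR, 5 at an unadjusted p under 0.05 and 4 by DESeq2.

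The mean log2 CPM over the 40 genes was below that over the replication genes in each of the 12 libraries. Over the 40 genes it was 4.29, 4.27 and 4.24 in SK-N-BE2 DMSO and 4.72, 4.79 and 4.73 in STM2457, a change of 0.48. Over the 55 replication genes it was 4.74, 4.85 and 4.70 and then 5.74, 5.76 and 5.72, a change of 0.98. The gap between these means in SK-N-BE2 went from between -0.58 and -0.45 with DMSO to between -1.02 and -0.97 with STM2457, with no overlap.

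In NGP the mean over the 40 genes was 4.91, 5.05 and 5.03 with DMSO and 5.36, 5.31 and 5.39 with STM2457, a change of 0.36, while the replication mean changed by 0.58. The gap was -0.95, -0.58 and -0.73 in the NGP controls and -0.96, -1.02 and -0.95 with STM2457. Control replicate 1 thus equalled the highest treated value. Both list means were higher in NGP controls than in SK-N-BE2 controls, by the values just given, although the lines were sequenced in separate runs.

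**Figure D4:**
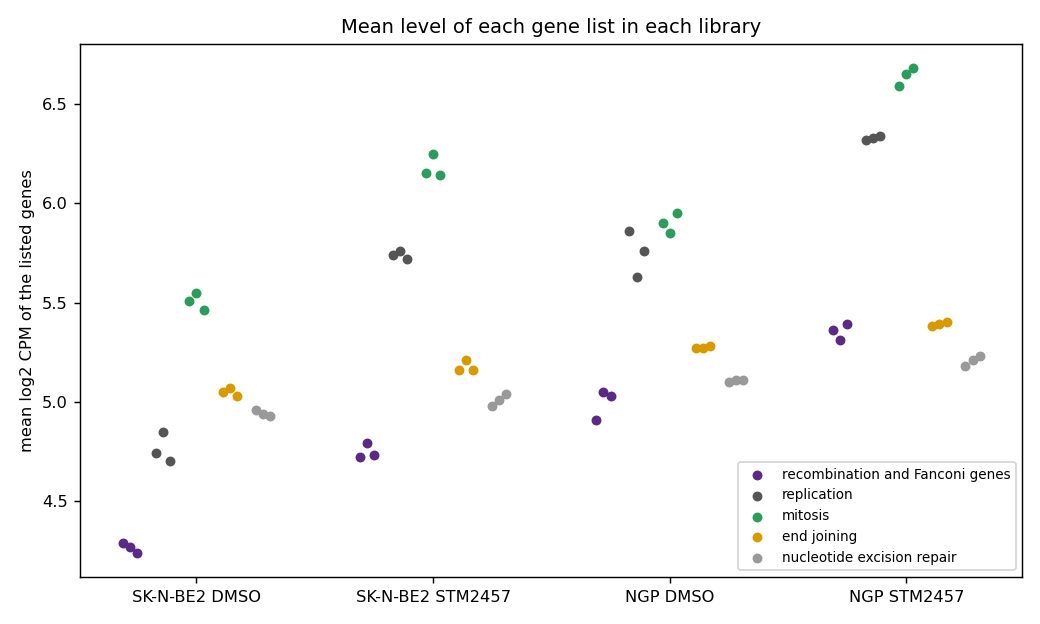
Mean log2 CPM over the genes of 5 lists (y axis) in each of the 12 libraries, grouped by line and treatment on the x axis, with 1 point per library. The recombination and Fanconi mean moved from 4.24 to 4.29 up to 4.72 to 4.79 in SK-N-BE2, and the replication mean from 4.70 to 4.85 up to 5.72 to 5.76.

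To ask gene by gene whether the change matched that of replication genes, the libraries of each line were rescaled so that the replication mean was equal in all of them. On that scale the median of all genes tested was -0.96 in SK-N-BE2 and -0.58 in NGP, so a gene that did not change at all appears lower. In SK-N-BE2, 30 of the 40 genes differed from the replication mean (86.3% of all genes): 5 rose more (2.41% of all genes were called higher) and 25 rose less or fell (83.9% of all genes). In NGP 23 of the 40 differed (65.2% of all genes), 7 higher (5.61% of all genes) and 16 lower (59.5% of all genes). Without NGP DMSO replicate 1 the NGP count was 30 (75.1% of all genes), 7 higher (6.83%) and 23 lower (68.3%). Without STM2457 replicate 3 only 2 were higher (3.96% of all genes), and without DMSO replicate 3 or STM2457 replicate 1 there were 4. The median of the 40 genes relative to replication was -0.39 in SK-N-BE2 and -0.27 in NGP. Many replication genes also differed from their own mean on this scale. In SK-N-BE2 38 of the 55 did (69.1%, 21 higher and 17 lower), and in NGP 37 (67.3%, 19 higher and 18 lower). A call on this scale is a difference from the mean of that list and does not by itself set a gene apart from replication genes.

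XRCC2, BRCA2 and RAD54L rose more than the replication mean in both lines. XRCC2 exceeded it by 1.04 in SK-N-BE2 (edgeR adjusted p 0.000421, SE 0.19) and by 1.06 in NGP (SE 0.15, edgeR adjusted p 0.000339) on the log2 scale. BRCA2 exceeded it by 0.35 (SE 0.11, edgeR adjusted p 0.0161) and 0.69 (SE 0.23, edgeR adjusted p 0.0248), and RAD54L by 0.36 (SE 0.11, edgeR adjusted p 0.00941) and 0.35 (SE 0.12, edgeR adjusted p 0.0253). RMI2 and FANCI were the others in SK-N-BE2, and FANCA, FANCL, UBE2T and FANCD2 the others in NGP. Of these calls only those of XRCC2 were kept under all 10 alternatives in each line. BRCA2 lost its SK-N-BE2 call without STM2457 replicate 2 or 3 and its NGP call without DMSO replicate 3 or any single STM2457 library, and RAD54L lost its NGP call in 6 alternatives.

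The choice of replication genes decided most of the calls above the mean. With the 6 MCM helicase genes MCM2 to MCM7 in place of the list, 32 genes differed in SK-N-BE2 (91.7% of all genes), 1 higher (1.31%) and 31 lower (90.4%), and 23 in NGP (71.7% of all genes), 1 higher (3.90%) and 22 lower (67.8%). XRCC2 was the 1 higher gene in both lines. On the list scale 15 genes were lower than the replication mean in both lines, RBBP8, RPA2, BRCA1, PALB2, RAD51B, RAD51C, RAD51D, MUS81, FANCC, FANCE, FANCF and FAN1 among them. Lower was the usual call on this scale, at 83.9% of all genes in SK-N-BE2 and 59.5% in NGP. Of the lower calls, 22 of 25 in SK-N-BE2 and 12 of 16 in NGP were kept under all alternatives. BRCA1 lost its SK-N-BE2 call under some alternatives, and FANCE and FANCF their NGP calls. TOPBP1, BARD1, RAD54B, RMI1, FANCB, FANCG and FANCM differed from the replication mean in neither line, which does not show that they changed by the same amount. Of all genes, 86.3% differed in SK-N-BE2 and 65.2% in NGP.

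In a second list of 54 other recombination and Fanconi genes, 53 were tested in SK-N-BE2, 22 called higher and 12 lower with a median of 0.12, and 54 in NGP, 18 higher and 4 lower with a median of 0.19. MCM8 (1.70) was among those that rose most in SK-N-BE2, with BRIP1, the helicase partner of BRCA1 (1.27), and CHEK1, the checkpoint kinase below ATR (1.17). The largest falls were DCLRE1A (-0.83), RECQL5 (-0.74), SFR1 (-0.71) and FAAP24 (-0.67). In NGP RTEL1 (1.17), CHEK2 (1.00), GEN1 (0.87) and FIGNL1 (0.81) rose most, and MAD2L2 (-1.02), FAAP100 (-0.89) and SWI5 (-0.73) were among the largest falls. MCM8, DCLRE1A, RECQL5 and RTEL1 share over 10% of their exon length with other genes. SFR1, the partner of SWI5, was called in opposite directions, lower in SK-N-BE2 and higher in NGP (0.55).

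Lists of repair genes that act outside recombination were set beside these. Of 18 end joining genes tested in SK-N-BE2, 8 were higher and 3 lower (median 0.20), PRKDC and SHLD2 rising most (0.89 and 0.62) and SHLD1 (-1.58) and APLF (-0.67) falling most. Of 17 tested in NGP, 3 were higher and 2 lower (median 0.13), with XRCC6 (0.70) up and POLL (-0.63) and LIG4 (-0.40) down. Of 22 nucleotide excision repair genes, 4 were higher and 3 lower in SK-N-BE2 (median -0.03) and 6 higher and 3 lower in NGP (median 0.07). DDB1 (0.44) and CDK7 (0.38) rose and GTF2H3 (-0.58) and MNAT1 (-0.32) fell in SK-N-BE2, while CETN2 (1.01) and GTF2H5 (0.71) rose and GTF2H1 (-0.75) fell in NGP. SHLD2 and APLF share over 10% of their exon length with other genes.

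Most mitosis genes rose in both lines. Of 30, 28 were called higher in SK-N-BE2 and 23 in NGP, with a median of 0.68 in each. BUB1 and ASPM rose most in SK-N-BE2 (both 1.16), and KIF20A (1.5) and MKI67 (1.43), the proliferation marker Ki-67, rose most in NGP. CDC25C was the 1 called lower in SK-N-BE2 (-0.32), and by edgeR 0 were lower in NGP, 0 at an unadjusted p under 0.05 and 0 by DESeq2. In the test between lines 7 of the 30 mitosis genes were called (23.3%, against 30.9% of all genes). By direction, 2 of the 30 leaned to SK-N-BE2 (6.67%, against 17% of all genes) and 5 to NGP (16.7%, against 13.9%). The replication genes called by edgeR, 27 of 55 (49.1%), all leaned to SK-N-BE2. The medians of the replication list, the mitosis list and the 40 repair genes were positive in both lines. The part of a change in dividing cells was not tested.

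**Figure D5:**
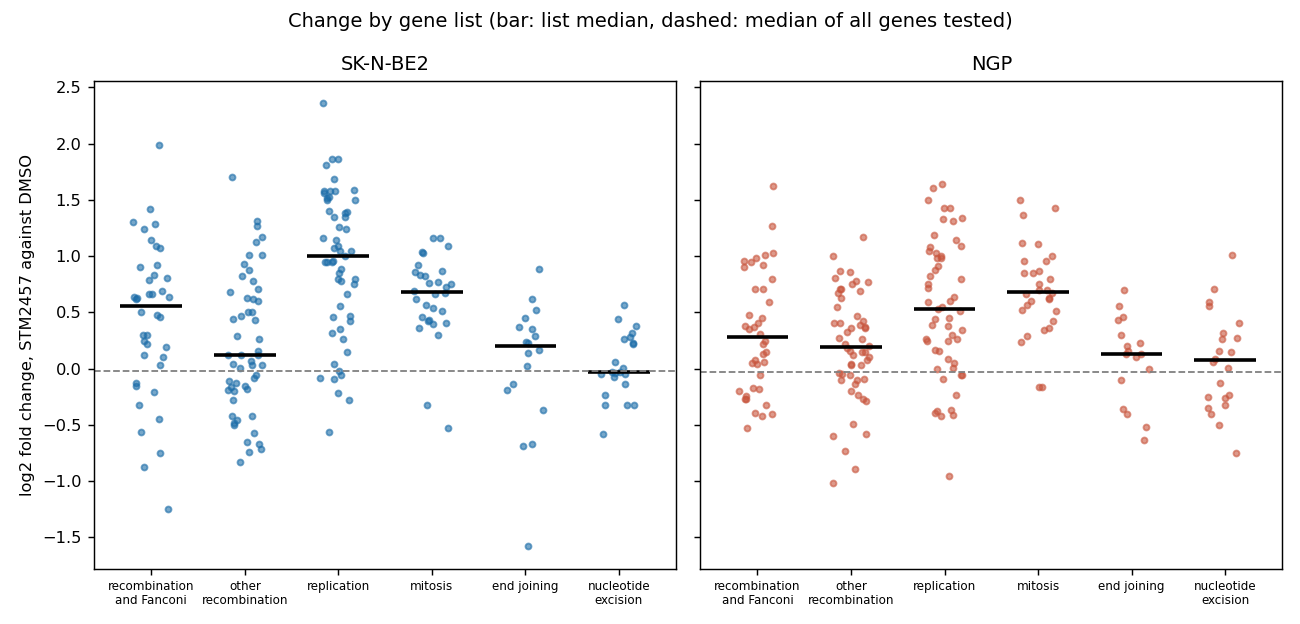
Log2 fold change with STM2457 for each gene of 6 lists (points), with the list median as a bar and the median of all genes tested as a dashed line, in SK-N-BE2 (left) and NGP (right). The 40 recombination and Fanconi genes had medians of 0.56 and 0.28, between those of the replication list (1.00 and 0.53) and those of end joining (0.20 and 0.13).

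The 5 genes with an E2F match in their promoter had a median log2 change of 1.07 in SK-N-BE2, where 4 were called higher and 1, FANCC, lower, and of 0.98 in NGP, where 3 were called higher. The 29 genes with a promoter and no match had medians of 0.46 and 0.25, with 17 and 10 called higher. Of all genes tested, 26.9% were called higher in SK-N-BE2 and 19.4% in NGP. Some windows lie far from the first base of the gene as counted. The distance was 109087 bases for FANCC, which has matches. Among genes without a match it was 135067 for RBBP8, 13293 for FAN1 and 3762 for RAD51B. The XRCC2 and FANCD2 windows shown above each hold the form TTTCCCGC on the opposite strand. FANCC holds the same form on its own strand and TTTCGCGC on the other. These counts are descriptive, and letters absent from a window of this size say nothing about binding elsewhere.

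For 9 of the 40 genes over 10% of the exon length is shared with another counted gene. Among the other 31, 24 were called in SK-N-BE2 (54.7% of all genes), 20 higher (26.9%) and 4 lower (27.8%). In NGP 14 were called, a share close to the 41.7% of all genes, 11 higher (19.4%) and 3 lower (22.2%). The difference between lines was called for 14 of these 31 (30.9% of all genes). Across the 40 genes Pearson's r of exon length with the log2 change was -0.31 (SK-N-BE2) and -0.06 (NGP), given as a description.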

How the data were processed

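The 12 libraries were put into groups of 3 from the cell line, treatment and replicate that their titles give. The labels do not say that replicates came from separate cultures, so p-values measure the spread between these samples. Gene counts were made by the authors with featureCounts 2.0.5 (paired, unstranded, exons of protein-coding genes of GENCODE 33), per the file headers, and the deposited values are whole-number counts, not normalized. Reads in exons of 2 genes and multi-mapping reads were dropped, and both mates of a fragment could count. The submitters' processing notes name GRCh38, Trimmomatic 0.36 and HISAT2 2.1.0, and also Subread 1.5.3, which is not the version in the headers.

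Each line was fitted separately in edgeR 4.0.16 under R 4.3.3 (filterByExpr with minimum count 10, TMM, quasi-likelihood test, Benjamini-Hochberg over all genes, threshold 0.05). The line difference was a contrast over 12 libraries. For the test against replication genes, TMM factors were replaced by factors that equalise the mean log2 CPM (prior count 2) of the 55 genes. CPM values use TMM factors over all libraries. Alternatives were other scalings, filters, DESeq2 1.42.0, counts halved, exon length offsets in 20 bins, a replicate block, a joint fit and leaving out each library. Without a spike-in, changes are relative.

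The genes and lists were chosen with earlier results of these data known. Values in every library are given in each line for the 6 called genes with the largest rise, the 4 with the largest fall and the 4 with the largest called line difference; further genes shown per library (NBN, SLX4 and FANCC) were chosen after their values were seen. Of the replication list the 3 largest called rises and 2 largest falls per line are named, of the other recombination list 4 each way, and of the other lists 2 each way; some genes that this rule picks are not reported here. Genes sharing over 10% of their exon length with exons of another counted gene are called uncertain.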

Additional observations from a re-analysis of the deposited data

Results flagged for a closer look

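The response to STM2457 differed between the lines for 15 of the 40 genes, by an edgeR interaction test over 12 libraries (SK-N-BE2 minus NGP, log2). The response was more positive in SK-N-BE2 for RMI2 (1.75), RPA2 (1.03), TOPBP1 (1.00), RAD51D (0.91), BRCA1 (0.73), FANCG (0.62), RMI1 (0.59), RAD51C (0.58), PALB2 (0.57) and FANCI (0.54). It was more positive in NGP for RAD51B (-1.05), SLX4 (-0.67), NBN (-0.59), MUS81 (-0.59) and FANCC (-0.50). RMI2, TOPBP1, BRCA1, FANCG, RMI1, RAD51C, RAD51B, MUS81 and FANCC were called in SK-N-BE2 alone. NBN, SLX4 and PALB2 were called in NGP alone. FANCI was called higher in both lines, and RPA2 and RAD51D were called in both with opposite signs. Of the 15, the differences of RAD51C and SLX4 did not pass under some removals of a single library (edgeR adjusted p up to 0.0658 and 0.0714). The lines differ in dose and sequencing run, and these cannot be told apart from the line.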

How the results depend on the processing

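The total counts of genes called stayed within 1.5 times their main value under every alternative run, but some counts by direction did not. Genes called lower in NGP numbered 3 with all libraries, 1 when STM2457 replicate 1 or 2 was left out, and 6 when DMSO replicate 1 was. For the difference, the lower calls went from 5 to 8 with exon length offsets or without NGP DMSO replicate 2. With MCM2 to MCM7 alone, 1 gene was above the replication mean in each line, in place of 5 (SK-N-BE2) and 7 (NGP). That NGP count was 2 with STM2457 replicate 3 left out and 4 with DMSO replicate 3 or STM2457 replicate 1 left out. Leaving out 1 library gave 27 to 33 of 40 in SK-N-BE2, 14 to 25 in NGP, 13 to 20 for the difference, and 26 to 31 and 16 to 30 relative to replication genes. Calls among all genes moved as well in these fits. They ran from 6497 to 7849 in SK-N-BE2, from 3816 to 7897 in NGP and from 3701 to 6274 for the difference. Relative to replication genes they ran from 11638 to 12473 (SK-N-BE2) and from 7294 to 10346 (NGP). Calls were kept under all alternatives for 26 of 30 genes in SK-N-BE2 (lost at times: RAD50, RBBP8, RAD51C and FANCE), 14 of 18 in NGP (RPA2, BARD1, RAD51D and EME1) and 13 of 15 for the difference (RAD51C and SLX4).

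The labels do not say whether replicate numbers pair the libraries. Same-numbered deviations had correlations from -0.0737 to 0.0876, which with 3 libraries per group does not settle it. With a replicate block 31 genes were called in SK-N-BE2, 16 in NGP, 15 for the difference, and 29 and 22 relative to replication genes. Among all genes the calls with that block were 7522, 5026, 4025, 12049 and 8432, in the same order.

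No called value changed sign. Uncalled values near 0 did. With upper-quartile factors PALB2 in SK-N-BE2 was -0.02, and the differences of BRCA2 and FANCD2 were -0.03 and -0.02. With exon length offsets ATR in NGP was -7.9e-05 and the BRCA2 difference was -0.07. Leaving out 1 library gave PALB2 in SK-N-BE2 from -0.01 to 0.11. In NGP it gave ATR from -0.16 to 0.22, BRCA1 from -0.18 to 0.03, FANCE from -0.02 to 0.13, RAD50 from -0.41 to 0.05, RPA3 from -0.03 to 0.29 and TOPBP1 from -0.0059 to 0.25. For the difference it gave ATR from -0.34 to 0.02, BRCA2 from -0.14 to 0.22, FANCD2 from -0.03 to 0.13, RAD54B from -0.10 to 0.46, RPA3 from -0.07 to 0.26 and UBE2T from -0.06 to 0.25. Outside the 40 genes, calls named here and lost under some alternative were POLD4, ORC3, MNAT1 and CDC25C in SK-N-BE2 and PRIM1, SWI5 and LIG4 in NGP. The cause of these shifts was not tested. Halving all counts left the totals at 30 (SK-N-BE2) and 18 (NGP).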

Other observations

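Levels per kilobase of exon differed widely among the 40 genes. In SK-N-BE2 DMSO they ran from 0.239 CPM per kilobase for RAD54B to 27.6 for UBE2T, with a median of 2.77, and in NGP DMSO from 0.32 for RAD54B to 61.6 for RPA2, with a median of 6.32. With STM2457 the medians were 5.24 and 7.81, and UBE2T was highest in both lines (60.1 and 60.0). Across the 40 genes Pearson's r between the DMSO level per kilobase and the log2 change was 0.02 (SK-N-BE2) and -0.06 (NGP), given as a description.

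Promoters were also searched for the cell cycle homology region (TTTGAA or TTCGAA), a letter pattern of genes of G2 and mitosis, and for the CCAAT box, on both strands. The first occurred in 4 of 34 recombination and Fanconi promoters (11.8%), against 16.6% of all 27305 and 76.0% of 25 mitosis promoters. CCAAT occurred in 38.2%, against 35.7% of all and 80.0% of mitosis promoters. No test of these shares was made.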
